A study of Mus musculus with 8 samples.

Results

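Integrin and laminin genes were examined for nearby binding of RelA (p65), an NF-kB subunit that activates transcription, in mouse embryonic fibroblasts given the inflammatory cytokine TNF. They were taken by symbol from the protein-coding genes on chromosomes 1 to 19: symbols that begin with Itga or Itgb and hold neither "bp" nor the letter l, and symbols that begin with Lama, Lamb or Lamc and a digit. This gave values for 35 of 20557 genes, 25 integrin and 10 laminin genes. The letter l also leaves out Itgal, the alpha L subunit of leukocytes, whose values are given at the end of the account of leukocyte integrins.

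RelA-bound DNA was collected by chromatin immunoprecipitation and sequencing (ChIP-seq) from primary wild-type C57BL/6 cells that had been starved of serum overnight, then fixed with disuccinimidyl glutarate and formaldehyde and precipitated with a p65 antibody. With these agents RelA can be held to DNA through other proteins. ChIP libraries were made at 0, 0.5 and 3 h of TNF at 10 ng/ml, 2 at each time, and 2 libraries of input DNA completed the 8. The labels do not say whether libraries of a group came from separate cultures. The processed file used here is 1 list of 9829 RelA peaks for the whole series on the mm10 genome, as chromosome, start and end, of which 9688 lie on chromosomes 1 to 19. The list carries no height and no time point, so TNF-treated and untreated cells could not be compared, depth is unknown and the list gives no spread between libraries. The fibroblast label could not be set against marker genes either, since peak positions carry no expression levels. Everything below is therefore a count or a distance, with no test, and neighbouring genes can share a peak.

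Integrins are receptors in the cell membrane that pair 1 alpha with 1 beta subunit and fasten cells to collagen, fibronectin, laminins or other cells. Laminins are the trimers of an alpha, a beta and a gamma chain that assemble into basement membranes, and several integrins are their receptors. Fibroblasts attach to their matrix mainly through integrins of the beta-1 and alpha-v groups, whereas several other members are known from leukocytes, platelets or epithelia.

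The clearest case of RelA at the start of a member was Lamb3, which encodes the beta-3 chain of the laminin that anchors the epidermis. Of the 35 genes, 23 had an annotated transcription start in the RefSeq promoter table of GRCm38.p6, the assembly behind mm10. Its windows run from 250 bases before a start to 50 after it. Lamb3 was the only 1 of the 23 with a peak over such a window, against 5.79% of the 16434 other protein-coding genes with a start. No other member was within 1 kb of a peak centre when measured from a start, against 6.84% of those other genes. Among as many genes of similar length, 2.00 would have one, so peaks at starts were not more frequent in these families than in genes of their length.

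Promoters are shown for Lamb3, which lies under a peak, for Itga3, which holds the only other match to the kappaB consensus among the members, and for Lama5, whose start is the next closest to a peak. The kappaB consensus that NF-kB proteins bind was searched on both strands as GGG, 1 purine, any 2 bases, 2 pyrimidines and CC. Capitals mark a match, and each sequence is on the strand of its gene, from RefSeq on GRCm38.p6. The windows are chr1:193301744-193302043 (plus strand) for Lamb3, chr11:95076665-95076964 (minus strand) for Itga3 and chr2:180225810-180226109 (minus strand) for Lama5.
Lamb3: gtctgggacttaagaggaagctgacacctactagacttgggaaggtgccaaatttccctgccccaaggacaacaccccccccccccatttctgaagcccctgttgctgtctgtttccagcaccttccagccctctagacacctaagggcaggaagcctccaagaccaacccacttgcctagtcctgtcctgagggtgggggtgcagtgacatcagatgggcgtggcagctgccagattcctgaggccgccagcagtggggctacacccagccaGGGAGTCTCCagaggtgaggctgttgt
Itga3: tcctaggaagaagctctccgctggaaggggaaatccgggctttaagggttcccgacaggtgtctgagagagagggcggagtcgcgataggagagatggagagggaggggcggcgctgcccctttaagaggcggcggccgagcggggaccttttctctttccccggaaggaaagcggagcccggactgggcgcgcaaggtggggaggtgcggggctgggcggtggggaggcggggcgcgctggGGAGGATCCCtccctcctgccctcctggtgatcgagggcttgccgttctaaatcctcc
Lama5: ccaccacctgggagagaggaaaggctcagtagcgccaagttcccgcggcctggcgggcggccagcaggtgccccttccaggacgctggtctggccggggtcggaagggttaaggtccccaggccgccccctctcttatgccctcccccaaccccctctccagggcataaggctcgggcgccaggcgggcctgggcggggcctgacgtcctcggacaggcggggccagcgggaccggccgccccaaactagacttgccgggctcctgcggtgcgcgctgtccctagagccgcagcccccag

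In Lamb3 the match GGGAGTCTCC fills bases 274 to 283 of the window, chr1:193302017-193302026, which is 23 to 32 bp past the first annotated start. The RelA peak spanned chr1:193301197-193302170, was 974 bp wide and had its centre 310.5 bp before that start. The match thus lay inside the peak, 338 bp from its centre and towards its downstream edge. A second annotated start 249 bp further on has a window that holds the same match. Both starts lie inside the gene as the gene table draws it, more than 7 kb from its low end, so a measure by gene ends alone would place the same peak 7.33 kb away.

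The match in Itga3, which encodes the alpha-3 subunit of a laminin receptor, reads GGAGGATCCC on the strand shown and spells the consensus on the opposite strand, over bases 243 to 252. No peak covered it. The nearest peak centre to either annotated Itga3 start was 59.6 kb away. Across 20085 promoter windows of protein-coding genes, 9.42% held a kappaB match, 29.5% of the 1090 windows under a peak and 8.27% of the others. A match in the window was thus more frequent under peaks, yet most windows under a peak held none of these letters. The AP-1 consensus TGANTCA, with N any base, was present in windows of Itgax, Itga9 and Itga3, none under a peak, and in 7.06% of all windows (5.32% of those under a peak).

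**Figure D1:**
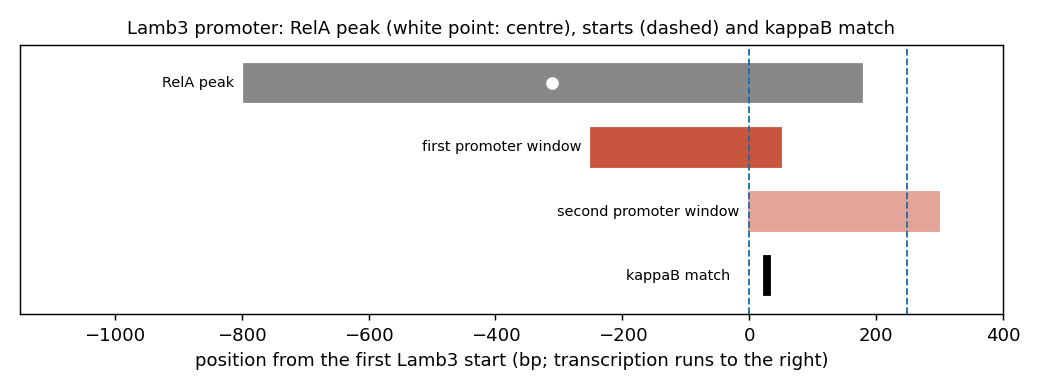
Map of the Lamb3 promoter in base pairs from its first annotated start. The grey bar is the RelA peak from -797 to 176 bp with its centre as a white point, red bars are the promoter windows, dashed lines the 2 annotated starts 249 bp apart, and the black mark the kappaB match at 23 to 32 bp, inside the peak.

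The other starts lay further from peaks. The nearest peak centre was 2.40 kb inside the gene from the start of Lama5, whose alpha-5 chain is a broad component of epithelial and vascular basement membranes. It was 2.53 kb inside from the start of Itga2b, the alpha subunit of the platelet fibrinogen receptor. At Lamb1, whose beta-1 chain is shared by several laminins, it was 6.11 kb inside, and at Itgav, the alpha-v subunit, it was 9.77 kb before the start. With these, the start was within 10 kb of a peak centre in 5 of 23 members, where 3.74 of as many genes of similar length would. The median distance from start to peak centre was 43.2 kb in the 23 members and 84.8 kb in other genes with a start. By these medians, starts of members were closer to peaks than those of other genes, which are shorter, but seldom within 1 kb. No such median was taken for genes of similar length. Within 5 kb of a peak centre were the starts of 3 members, where 2.85 of as many genes of similar length would be.

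**Figure D2:**
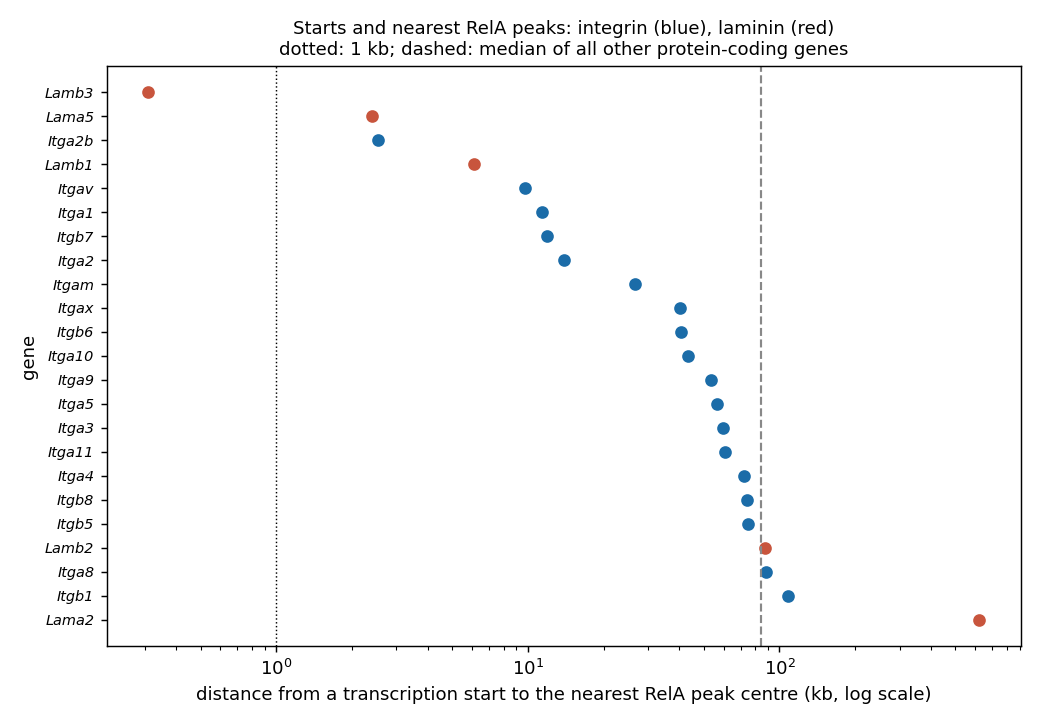
Distance from an annotated start to the nearest RelA peak centre, in kb on a log scale, for the 23 integrin (blue) and laminin (red) genes with a start. Lamb3 alone lies left of 1 kb (dotted line), and the dashed line is the median of other protein-coding genes, 84.8 kb.

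Counted over the whole gene, more members had a RelA peak than the number that genes of their length would give. A peak centre lay inside the gene or within 10 kb of it in 19 of 35 members (54.3%, Wilson 95% interval 38.2 to 69.5%), against 23.7% of the 20522 other protein-coding genes. Members are long, with a median of 62.5 kb against 17.5 kb for other genes, and longer genes hold more peaks. Each was therefore set beside all other protein-coding genes of 80 to 125% of its length, 117 to 2569 genes for a member. Their shares add up to 12.6 of 35 (35.9%), so the members' count was 1.51 times that of genes of similar length. Intervals here cover counting error only.

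The same held for the gene alone and for wider flanks. In 18 of 35 members (51.4%) a centre lay inside the gene, against 15% of other genes and 9.95 of 35 for genes of similar length. With flanks of 50 kb the count was 29 of 35 (82.9%, Wilson 95% interval 67.3 to 91.9%), against 44.4% of other genes and 18.8 of 35 for similar length. Members held 23 peaks inside, against 16.4 for genes of similar length. The 23 peaks amount to 6.81 peaks per Mb of gene, against 4.79 per Mb in all other protein-coding genes. The sets of similar length, pooled without weights, had 5.11 per Mb, but their genes are shorter than the members, with a median of 30.4 kb. The members were chosen with earlier results of these data known, so these ratios describe the families and are no test of them.

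**Figure D3:**
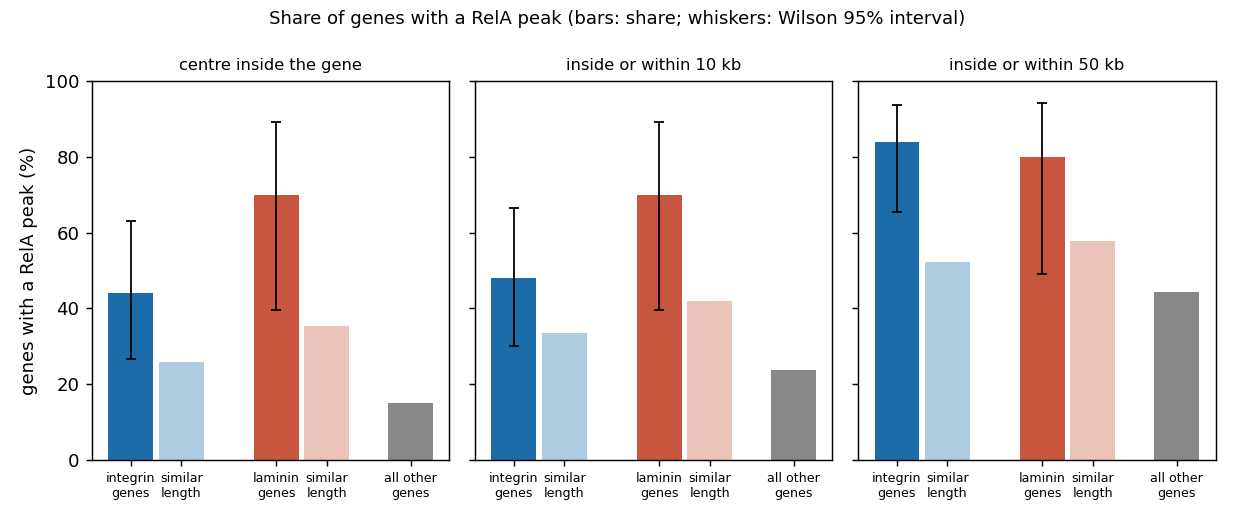
Share of genes, in percent, with a RelA peak centre inside the gene, inside or within 10 kb, and inside or within 50 kb. Dark bars are integrin and laminin genes with Wilson 95% intervals, pale bars other genes of similar length, grey bars all other protein-coding genes. Both families stand above their genes of similar length in each panel, and the intervals of the 2 families overlap.

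Peaks inside members lay mostly far from gene ends, about as often as in genes of similar length. The 19 members had 26 distinct peaks within 10 kb, 23 of them inside the gene, and 25 of the 26 were closer to an end of that member than to one of any other protein-coding gene. The exception was the Itga1 peak. No such share was taken for genes of similar length. Inside members, 17 of 23 peaks (73.9%) were more than 10 kb from both gene ends, against 72.3% in genes of similar length, weighted by the number of peaks in each member. None of the 23 was within 1 kb of a gene end, against 9.89% in genes of similar length. The 26 peaks had a median width of 760.5 bp (526 to 1188 bp) against 687 bp in the whole list, and 8 of them were wider than its upper quartile of 816 bp.

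**Figure D4:**
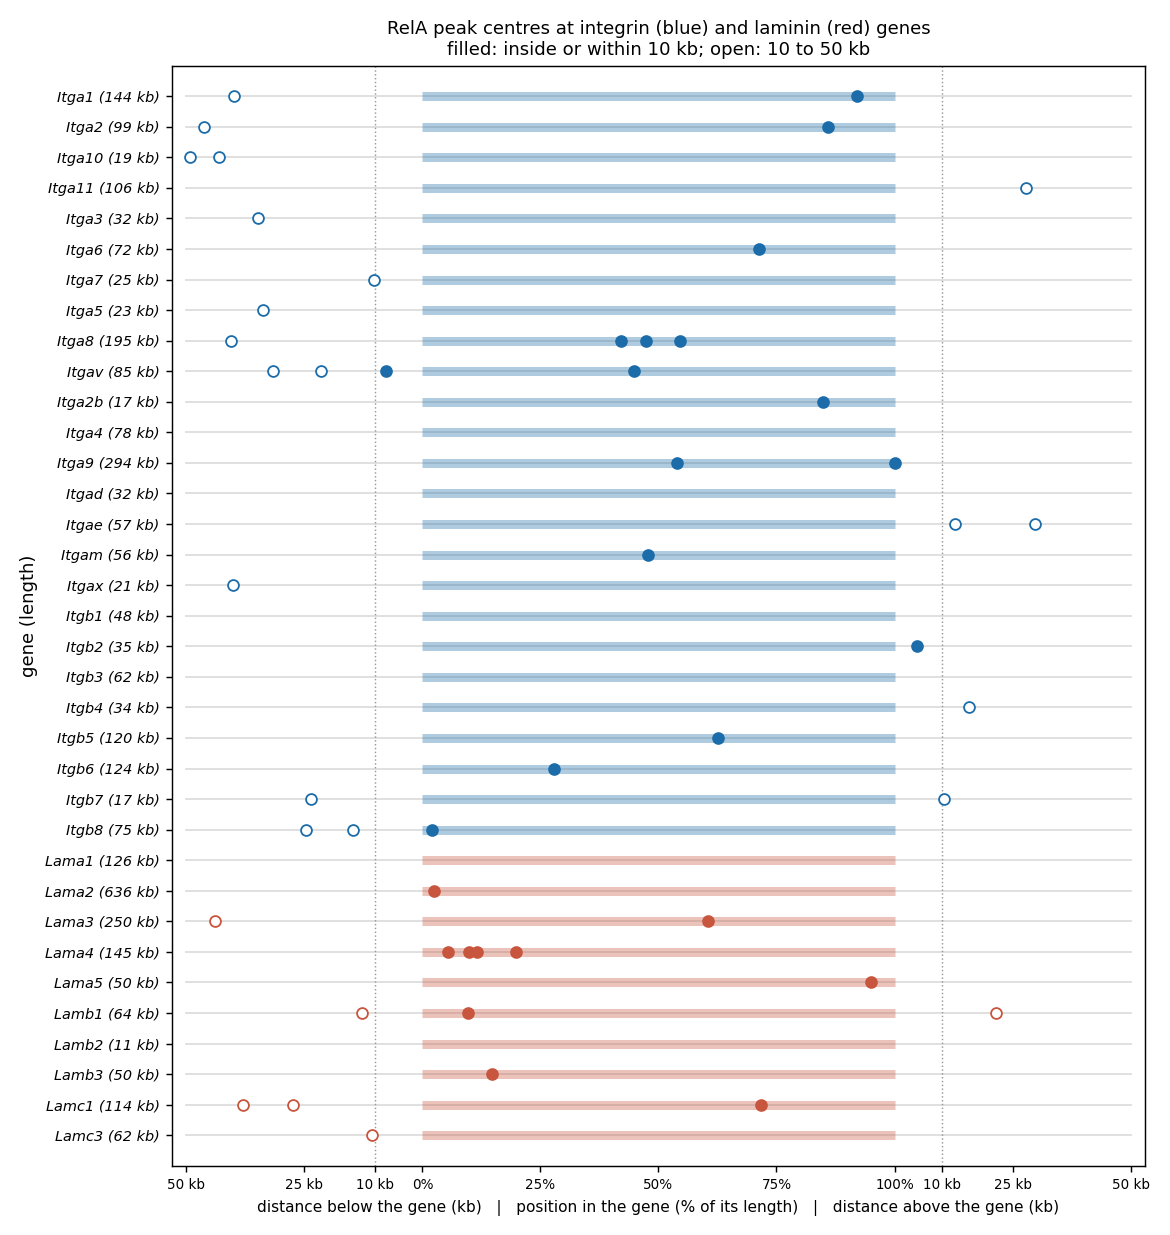
RelA peak centres along the 35 genes, ordered by family and role. Bars are the genes scaled to their length, in percent, drawn by increasing coordinate and not by direction of transcription, with 50 kb on each side in kb. Filled points lie inside or within 10 kb and open points at 10 to 50 kb. The 4 Lama4 points crowd at 1 end of the gene, and 6 genes have no point.

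Among the alpha subunits of collagen receptors, 2 of 4 had a peak within the gene, against 1.28 for genes of similar length. Their 2 peaks inside were as many as the 2.00 that genes of similar length would hold. Itga1 and Itga2, neighbours on chromosome 13 that are 26.0 kb apart, each had 1. In Itga2 (114833081 to 114932100) the peak at 114917625 to 114918649 was 1025 bp wide and 14.0 kb inside from the start. In Itga1 (114958079 to 115101964) the peak at 115090084 to 115091042 was 11.4 kb inside from the start, but only 0.405 kb from an end of Pelo, a ribosome rescue gene placed within Itga1. The Itga1 peak can therefore be counted with either gene. Itga10 and Itga11, which encode the other collagen-binding subunits, had peaks at 43.2 and 27.8 kb only. The Itga11 one was 0.133 kb from an end of Fem1b, and the nearer of the Itga10 pair was 1.28 kb from Lix1l.

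Alpha subunits of laminin receptors had few. Itga6, whose product pairs with beta-1 or beta-4, held a peak of 819 bp at chromosome 2, 71837405 to 71838223, 20.6 kb from its nearer end. Itga7, the muscle laminin receptor subunit, lay 10.3 kb from a peak that was 0.367 kb from Bloc1s1. Itga3 lay 34.9 kb from a peak that was 0.185 kb from Samd14. With 1 of 3 within 10 kb, this group was close to the 0.804 of genes of similar length.

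Peaks were more numerous at alpha subunits that recognise the RGD tripeptide of fibronectin and vitronectin, where 3 of 4 genes held 6 peaks, against 1.38 genes and 2.29 peaks for genes of similar length. Itga8, whose receptor binds nephronectin and is known from mesenchyme and kidney, held 3 peaks at chromosome 2, 12188322 to 12189413, 12198662 to 12199314 and 12212834 to 12213693. Their centres spanned 24.4 kb in the middle of the gene, 88.7 to 113 kb inside from its start. Of genes of similar length, 13.8% held at least 3, and 16.4% had at least 3 inside or within 10 kb. Itgav had a peak of 1188 bp 7.68 kb below the gene (chromosome 2, 83714029 to 83715216), 1 of 665 bp inside it, and 2 more at 21.4 and 31.6 kb on the side of the start. The farthest of these was nearer to an end of Zc3h15, at 26.1 kb. The 4 Itgav peaks within 50 kb were matched or exceeded by 4.47% of genes of similar length. The 2 peaks inside or within 10 kb were matched or exceeded by 13.0%, and the 1 inside by 30.5%.

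Itga2b, on chromosome 11 from 102453297 to 102469883, is the shortest member with a peak at 16.6 kb of length, and 19.1% of genes of similar length had a peak within 10 kb. Its peak, 820 bp wide, spanned 102466946 to 102467765. Itga5 had none within 10 kb, where 22.0% of genes of similar length had one. It encodes the alpha-5 subunit of the main fibronectin receptor of fibroblasts, and the peak 33.7 kb from it lay 0.109 kb from Gpr84.

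Of the subunits alpha-4 and alpha-9, which bind VCAM-1 and fibronectin or tenascin, Itga9 had 2 peaks and Itga4 none. The Itga9 peak of 526 bp at chromosome 9, 118900778 to 118901303, had its centre 0.038 kb past the end of the gene, and it was the closest of all members' peaks to a gene end. That is the far end, 189 kb downstream of the annotated start. The other lay 53.5 kb inside from that start. Of genes of similar length to Itga9 (294 kb), 40.0% had 2 or more inside or within 10 kb, and 64.9% had at least 1 inside. Itga4 lay 72.1 kb from the nearest peak centre.

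Leukocyte alpha subunits had a peak within 10 kb in 1 of 4 genes, against 1.06 for genes of similar length. Itgam, the alpha subunit of complement receptor 3, held 1 of 676 bp at chromosome 7, 128088968 to 128089643, 26.7 kb from its start. Its neighbour Itgax, a further complement receptor subunit, lay 40.2 kb from the same peak, and Itgad had none within 50 kb (84.6 kb). Itgae, the subunit by which T cells bind E-cadherin, had 2 at 12.9 and 29.8 kb. The nearer one was 4.93 kb from an end of P2rx5 and the farther one 0.151 kb from Tax1bp3. Itgal, outside the symbol rule, had no peak within 50 kb either, with the nearest 58.2 kb away.

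Among beta subunits 4 of 8 had a peak within 10 kb, against 2.56 for genes of similar length. Itgb5 and Itgb6, partners of alpha-v, held 1 each, 44.7 and 34.7 kb from the nearer gene end. Itgb8, the partner of alpha-v that releases active TGF-beta, held 1 at chromosome 12, 119163892 to 119164688, 1.49 kb from the downstream end of the gene and 74.0 kb from its start, with 2 more 14.7 and 24.7 kb past that end. Itgb2, the shared beta subunit of leukocyte integrins, had 1 outside the gene at 4.73 kb.

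Itgb1, whose product is the beta subunit of many integrins on fibroblasts, had no peak within 50 kb, and the nearest centre was 60.0 kb away. Of genes of similar length to Itgb1, 50.6% had a peak within 50 kb. Itgb3, the partner of alpha-v and of alpha-IIb, was the member farthest from any peak, at 166 kb. Itgb4, the hemidesmosome subunit, had 1 at 15.7 kb, which was nearer to an end of H3f3b. Itgb7, the partner of alpha-4 and alpha-E on lymphocytes, had peaks at 10.4 and 23.5 kb.

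Laminin genes had a peak within 10 kb in 7 of 10 cases (70.0%, Wilson 95% interval 39.7 to 89.2%). Genes of similar length would give 4.19 (41.9%), a share inside that interval. All 7 had at least 1 inside the gene. Counted as peaks, laminin genes had 10 against 7.89 for genes of similar length, and 4 of the 10 were in Lama4. Among alpha chains 4 of 5 had a peak within 10 kb, against 2.61 for genes of similar length, as these chains include the longest members. Lama4, whose chain is typical of vessels and mesenchyme, had the most of any member, with 4 peaks of 629, 757, 533 and 781 bp on chromosome 10 between 38972912 and 38994548. They lay 7.71, 14.2, 16.7 and 28.6 kb from its low end, a span of 20.9 kb in a gene of 145 kb. Of 821 genes of similar length 2.80% held at least 4 peaks. No start was given for Lama4 in the promoter table, so these positions have no direction.

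The remaining alpha chains had at most 1 within 10 kb. Lama2, the laminin chain of muscle and the longest member at 636 kb, held 1 peak, 621 kb downstream of its start and 15.0 kb from the far end. Genes of similar length averaged 2.08 inside, so Lama2 had fewer than that mean. Lama3, the alpha chain partner of beta-3, held 1 of 810 bp, 98.6 kb from its nearer end. It had another 43.9 kb outside the gene, nearer to an end of Ankrd29 (16.5 kb). Lama5 held 1 of 587 bp at chromosome 2, 180223170 to 180223756. Lama1, the chain of early embryonic basement membranes, lay 66.7 kb from the nearest.

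Of the beta chains, 2 of 3 had a peak within 10 kb, against 0.807 for genes of similar length. Lamb1 held a peak of 751 bp at chromosome 12, 31271023 to 31271773, and had another 12.9 kb before its start. A further 1, 21.6 kb past the gene, lay 0.246 kb from an end of Dld. Lamb3 had the promoter peak alone. Lamb2, whose chain is known from synapses and the kidney filter and which is the shortest member at 10.7 kb, lay 76.9 kb from the nearest.

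Lamc1, whose gamma-1 chain is part of most laminins, held a peak of 592 bp at chromosome 1, 153300343 to 153300934, 32.1 kb from its nearer end. Lamc3, which encodes the gamma-3 chain, lay 10.7 kb from a peak of 505 bp and so fell just outside the window. Genes of similar length to these 2 would give 0.770 with a peak within 10 kb, where 1 had one.

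**Figure D5:**
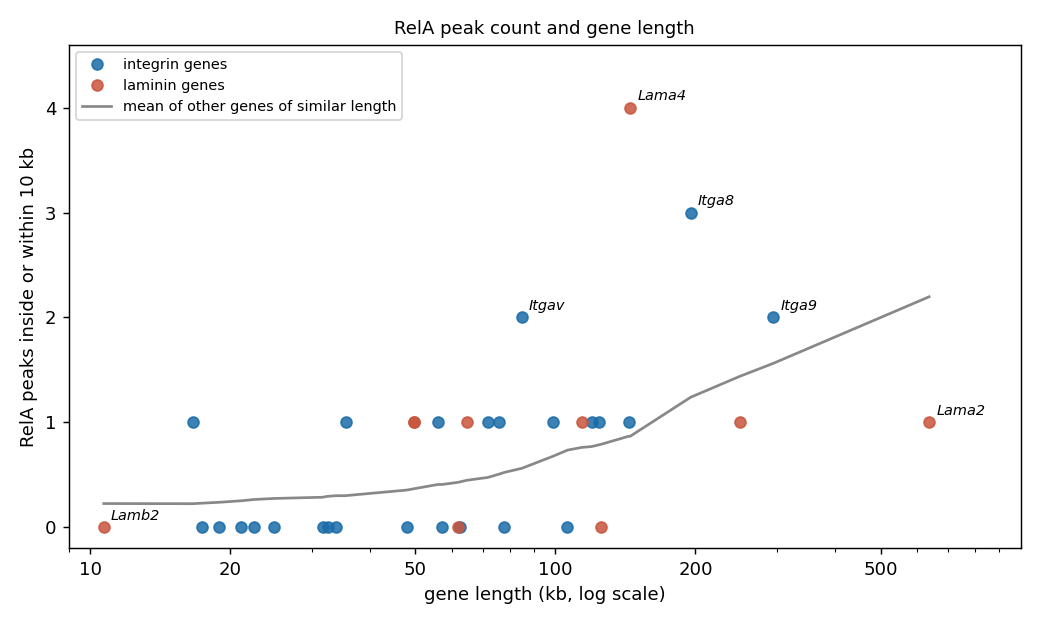
Number of RelA peaks inside or within 10 kb of each gene against gene length in kb on a log scale, for integrin (blue) and laminin (red) genes. The grey line is the mean of other genes of similar length. Lama4 (4), Itga8 (3), Itgav (2) and Itga9 (2) have more than 1 peak, and Lama2, the longest, lies below the line.

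Sorted by trimer, all 3 chain genes of the laminin of vessels (alpha 4, beta 1 and gamma 1) had a peak within 10 kb. Genes of similar length would give 1.27 of 3. They had 6 peaks in all against 2.07 for genes of similar length, and 4 of the 6 were those of Lama4. All 3 of the laminin of muscle (alpha 2, beta 1 and gamma 1) had 1 as well, against 1.49 genes for similar length. The 3 peaks were no more than the 3.41 of genes of similar length. In the trimers of alpha 1, beta 1 and gamma 1 and of alpha 5, beta 2 and gamma 1, 2 of 3 did, with 2 peaks each. Genes of similar length would give 1.24 and 0.932 genes, with 2.00 and 1.35 peaks. Other trimers were not counted. Lamb1 and Lamc1 stand in several of these trimers, so the counts are not separate observations.

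Between the 2 families, the share of genes with a peak at 10 kb was lower for integrins, and the interval of the difference included 0. Members are not replicates and can share neighbours, so that interval is no test of the families. The shares were 12 of 25 integrin genes (48.0%, Wilson 95% interval 30.0 to 66.5%) and 7 of 10 laminin genes (70.0%), a difference of -22.0 percentage points (integrin minus laminin, Newcombe 95% interval -48.3 to 13.5). Genes of similar length to the 2 families differ by -8.43 points, and integrin genes are shorter (median 56.9 kb against 89.2 kb). Set beside their own genes of similar length, integrin genes had 1.43 times and laminin genes 1.67 times as many with a peak. Counted as peaks inside or within 10 kb, the ratios were 1.23 for integrin and 1.27 for laminin genes. With flanks of 50 kb the difference was 4.0 points (-19.5 to 36.4), from 21 of 25 integrin and 8 of 10 laminin genes. The order of the 2 families relative to genes of similar length also turned there, to 1.61 times for integrin and 1.39 times for laminin genes.

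At 10 to 50 kb and no nearer, 9 of 25 integrin genes had a peak, against 4.70 for genes of similar length, and 1 of 10 laminin genes did, against 1.58. Counting also genes with a nearer peak, there were 19 pairs of gene and peak at that range for integrins (10.8 for similar length) and 6 for laminins (4.02). Of the 23 distinct peaks found only at that range, 17 were closer to the end of another gene, 7 of them within 1 kb of it, as named above for Fem1b, Bloc1s1, Samd14, Gpr84, Tax1bp3 and Dld. The seventh was the Itga10 peak 49.3 kb from the gene, which lay 0.313 kb from Ankrd34a. Counts at 50 kb therefore take in peaks at other genes, and genes of similar length were counted in the same way. How many of their peaks at that range lay nearer to another gene was not counted. Counted by gene ends alone, with peaks deeper than 10 kb inside not taken, 5 of 25 integrin genes (5.36 for similar length) and 4 of 10 laminin genes (2.16) had a peak within 10 kb. The count of integrin genes at their ends was thus near that of genes of their length.

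Partners of the 2 families were counted from a list of 24 genes for other basement membrane proteins, integrin ligands and proteins that join integrins to actin. Of these, 13 (54.2%) had a peak inside or within 10 kb, against 7.76 (32.3%) for genes of similar length. Inside the gene alone the count was 7, near the 5.90 of genes of similar length, and with 50 kb it was 18 against 12.4. Parva, the actin linker alpha-parvin, held 6 peaks and Hspg2, the basement membrane proteoglycan perlecan, 4. These are the highest counts of the 24, in genes of 164 and 102 kb. No share of other genes was taken for single partners or for the distances that follow. Peak centres lay 0.102 kb from an end of Sdc4 (syndecan-4, a coreceptor of integrins for fibronectin), 0.160 kb from Ilk, the integrin-linked pseudokinase, 0.346 kb from Fermt2 (kindlin-2, an integrin activator), 0.433 kb from Agrn and 0.442 kb from Nid2, both encoding laminin-binding proteins. Nid1, Npnt, Fermt1, Lims1, Vcl and Rap1a had none within 50 kb, and the fibronectin gene Fn1 lay 48.3 kb from the nearest.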

How the data were processed

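RelA ChIP-seq and input DNA libraries of mouse embryonic fibroblasts were sequenced. The submitters' processing notes name MACS2, Bowtie2 2.3, cutadapt 1.9.1, Picard 1.13, SAMtools and deepTools, and the build mm10. What each tool did, at what threshold peaks were called, how input served and whether libraries were pooled is not given in the sources used here. Deposited by the authors were peak positions in base pairs (chromosome, start, end), with no score. Starts were converted to count from 1, and a peak was placed by its centre.

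Gene positions came from the RefSeq gene table of GRCm38.p6. In it, 107 protein-coding genes of chromosomes 1 to 19 that lie on patch or unplaced scaffolds were left out. Starts, strands and promoter sequences came from the RefSeq promoter table, which has no entry for 12 members. Members and gene lists were chosen with earlier results of these data known. A gene that the symbol rule finds is not reported here and enters no count. All members are named. Other genes are named from the partner list or where their end is nearest to a member's peak. Pandas 2.3.3 and SciPy 1.17.1 were used, and peak counting was checked on simulated peaks planted at known places. Alternatives changed the window, the gene ends, overlap in place of the centre, peak width, merging, length range and membership.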

Additional observations from a re-analysis of the deposited data

How the results depend on the processing

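Of the 35 members, 9 had a peak within 10 kb when gene ends alone were counted (7.52 for genes of similar length) and 34 with 100 kb (23.9). With 1 kb in place of 50 kb the count was 18 (10.8 for similar length), and with 5 kb 19 (11.5). Keeping the wider peaks alone left 14 within 10 kb (7.80 for similar length). The integrin minus laminin difference turned to 4.0 percentage points at 50 kb. That window was planned for the counts, but its use as an alternative for this difference was added after seeing the data. The difference was -4.0 at 100 kb and 0 with the wider peaks, and ranged from -29.8 to -18.7 with each of the 35 genes left out in turn. Relative to genes of similar length, integrins stood above laminins at 50 kb (1.61 and 1.39 times) and with the wider peaks (1.97 and 1.46 times), and below them by gene ends alone (0.933 and 1.85 times). Other length ranges, merging, any overlap and adding Itgal moved no count by over 1.5 times. Depth is unknown and could not be weighed. No paired analysis was possible because the peak list has no values per sample.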
